A study of Homo sapiens with 22 samples.

Results

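Very long genes, those whose body runs over 500 kb or more, hold stretches of accessible chromatin far from either gene end, and the data were read here for these stretches in 2 human multiple myeloma cell lines. Accessible regions were assembled by merging the deposited peak lists of all 22 libraries on the 22 autosomes and X and keeping the 69187 merged regions called in at least 2 libraries. A region was taken when it lay inside a protein-coding gene of 500 kb or longer in the RefSeq annotation of hg38 and more than 1 kb from both ends of every protein-coding gene. This gave 4141 regions, 5.99% of the total, in 310 of the 314 genes of that length. Beyond the call in at least 2 libraries of any group, the choice used positions, and no difference between groups.

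The libraries were made by ATAC-seq, in which the Tn5 transposase inserts sequencing adapters into open chromatin, and the study addressed degradation of NSD2 by the compound NSD2LDD. KMS11 and KMS34 are established lines recorded as bone marrow multiple myeloma of genotype t(4;14), a translocation that places NSD2 under immunoglobulin enhancers. Each of the 11 groups had 2 libraries. KMS34 was sampled untreated at day 0, with NSD2LDD at days 4 and 10, and with DMSO, the vehicle, at days 4 and 10. A KMS11 group at day 0 carried the genotype TKO, which the labels do not spell out, in place of t(4;14), and the other KMS11 groups were sampled in the same 5 conditions as KMS34. Treated cultures were diluted into fresh medium with compound or vehicle at intervals of a few days. The concentration of NSD2LDD was not given in the sources used here, and whether TKO is 1 clone was not stated. Nothing says that the duplicates of a group were separate cultures, so the p-values below measure the spread between these samples only.

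NSD2 writes dimethylation on lysine 36 of histone H3, a mark spread over gene bodies and intergenic chromatin, and the translocation raises its level. Genes of this length are mostly intron, take long to transcribe, and encode many adhesion, synapse and signalling proteins of neurons, next to enzymes and transcription factors used in many tissues. Several of them overlap common fragile sites, where replication under stress leaves breaks. Open chromatin inside such a gene can be an enhancer or an alternative promoter from which a shorter transcript starts.

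Of the regions that the comparisons below turn on, 7 are shown that lie at annotated transcription starts, and the 250 bases upstream of those starts (RefSeq, GRCh38.p14) show how different these sites are in sequence. Each is written 5′ to 3′ on the gene's strand, in lower case, with every CG dinucleotide in capitals, since CG-dense promoters and CG-poor ones behave differently across cell types. In the PDE10A and SLC4A4 windows the covered bases were 0 in both TKO libraries. The GPC6 window borders a region called in KMS11 alone and the NRXN3 window lies in one called in KMS34 alone. The DAB1 and RABGAP1L windows lie in regions that differed under NSD2LDD in KMS34, and the DLG2 window lies in a region called in all 22 libraries.
PDE10A, chr6:165663242-165663491, minus strand: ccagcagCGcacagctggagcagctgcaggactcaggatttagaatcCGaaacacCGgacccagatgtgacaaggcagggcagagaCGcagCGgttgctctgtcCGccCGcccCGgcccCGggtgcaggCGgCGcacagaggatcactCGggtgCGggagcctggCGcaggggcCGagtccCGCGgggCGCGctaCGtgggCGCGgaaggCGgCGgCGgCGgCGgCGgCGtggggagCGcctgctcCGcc
SLC4A4, chr4:71186515-71186764, plus strand: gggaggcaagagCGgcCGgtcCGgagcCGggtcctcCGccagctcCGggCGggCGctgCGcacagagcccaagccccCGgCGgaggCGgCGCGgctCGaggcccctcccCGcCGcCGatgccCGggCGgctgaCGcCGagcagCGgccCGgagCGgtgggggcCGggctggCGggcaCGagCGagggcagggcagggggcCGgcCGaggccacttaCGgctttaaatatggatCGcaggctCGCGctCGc
GPC6, chr13:93226557-93226806, plus strand: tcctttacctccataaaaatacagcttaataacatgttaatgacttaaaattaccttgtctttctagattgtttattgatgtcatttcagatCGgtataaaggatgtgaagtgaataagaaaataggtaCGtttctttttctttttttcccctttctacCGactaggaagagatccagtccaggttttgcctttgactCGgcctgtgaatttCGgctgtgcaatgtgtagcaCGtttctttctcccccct
NRXN3, chr14:79279130-79279379, plus strand: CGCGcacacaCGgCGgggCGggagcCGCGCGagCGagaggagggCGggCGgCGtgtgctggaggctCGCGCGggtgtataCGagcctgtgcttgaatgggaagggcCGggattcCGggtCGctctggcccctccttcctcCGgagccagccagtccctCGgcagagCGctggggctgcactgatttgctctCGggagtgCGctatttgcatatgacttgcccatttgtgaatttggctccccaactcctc
DAB1, chr1:57424061-57424310, minus strand: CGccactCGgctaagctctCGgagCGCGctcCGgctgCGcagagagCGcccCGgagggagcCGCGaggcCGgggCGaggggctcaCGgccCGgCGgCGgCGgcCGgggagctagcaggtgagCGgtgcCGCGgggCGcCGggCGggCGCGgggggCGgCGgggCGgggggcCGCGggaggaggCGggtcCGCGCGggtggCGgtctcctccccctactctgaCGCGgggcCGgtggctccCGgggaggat
RABGAP1L, chr1:174964528-174964777, plus strand: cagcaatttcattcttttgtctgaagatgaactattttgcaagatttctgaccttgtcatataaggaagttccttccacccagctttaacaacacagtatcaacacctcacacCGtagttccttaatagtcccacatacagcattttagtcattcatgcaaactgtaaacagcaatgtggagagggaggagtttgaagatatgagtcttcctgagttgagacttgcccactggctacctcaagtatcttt
DLG2, chr11:84720943-84721192, minus strand: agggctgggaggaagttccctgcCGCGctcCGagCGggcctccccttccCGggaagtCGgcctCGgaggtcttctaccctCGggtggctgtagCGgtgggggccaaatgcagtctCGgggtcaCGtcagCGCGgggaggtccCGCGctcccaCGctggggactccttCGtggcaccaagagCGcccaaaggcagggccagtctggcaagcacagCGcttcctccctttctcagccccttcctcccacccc

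The motif counted was CG, which reads the same on both strands. The windows of SLC4A4 and PDE10A held 36 and 31 CG, and 4.01% and 9.55% of the 34961 windows of this length in the promoter table held more. DAB1 held 41, more than all but 1.38% of windows. NRXN3 held 24 (21.7% held more) and DLG2 held 19 (32.5% held more). GPC6 held 6, with 59.0% of windows holding more, and only its last 50 bases lie in the region. RABGAP1L held 1, with 85.4% of windows holding more. In all, 93.97% of windows held at least 1 CG, and the median was 11.

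These genes are 1.57% of 19974 protein-coding genes, and their bodies span 261 Mb, 20.7% of the 1261 Mb that protein-coding genes cover. Interior regions were sparser in them than in shorter genes, at 15.8 per Mb of gene body against 20.4 to 22.5 per Mb in the 4 shorter length classes. A very long gene held a median of 12 regions and at most 58, and 200 genes held 10 or more. Another 2161 interior regions of these genes were called in 1 library only and are outside the set. No qualifying region was found in AFF2, DOCK1 or TAFA1, and the 18 in SCHIP1 all lie in the longer IQCJ-SCHIP1 that overlaps it and are counted there.

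Regions inside very long genes were called in a median of 8 libraries and were 580 bp wide at the median. The 22129 interior regions of shorter genes, the comparison used throughout, had medians of 9 libraries and 636 bp, and the 12722 regions within 1 kb of a gene end had a median of 22 libraries. Calls in all 22 libraries were made for 263 of the regions (6.35%), against 11.5% of shorter-gene interior regions. Calls in KMS34 alone made up 40.8% (1689 regions), against 25.6% in shorter genes, and calls in KMS11 alone 14.6% (605 regions), against 19.8%. Every KMS34 library and no KMS11 library called 187 regions, and every KMS11 library and no KMS34 library called 88. A called region had a median −log10 q of 8.93 to 16.9 in a library, against 9.51 to 19.5 in shorter genes, and a median fold enrichment of 5.49 to 9.21, against 5.18 to 9.14. Both are the authors' peak scores.

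Along the gene body the regions were spread almost evenly. From the 5′ to the 3′ end, 5 successive stretches of equal length held 20.0%, 18.1%, 18.3%, 19.2% and 24.4% of the 3477 regions with a stranded position, at a median of 421 kb from the 5′ end.

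An annotated RefSeq transcription start lay in 116 of the 4141 regions (2.80%), in 85 of them a start of the surrounding long gene itself. These start regions were called in a median of 20 libraries, against 7 for the other regions, and in all 22 libraries in 41 of 116 cases (35.3%), against 222 of 4025 (5.52%). Their median width was 1082.5 bp, against 572 bp. In the 10 KMS34 libraries 73.3% to 82.8% of them were called, and in the 12 KMS11 libraries 44.8% to 76.7%. The other regions were called at 34% to 62.5% in KMS34 and 17.8% to 36.7% in KMS11. Start regions called in all 22 libraries had a median of 18.5 CG per 300-base window, and the 29 called in 1 line only had a median of 3. Start windows that lost coverage in TKO had a median of 18.

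**Figure D1:**
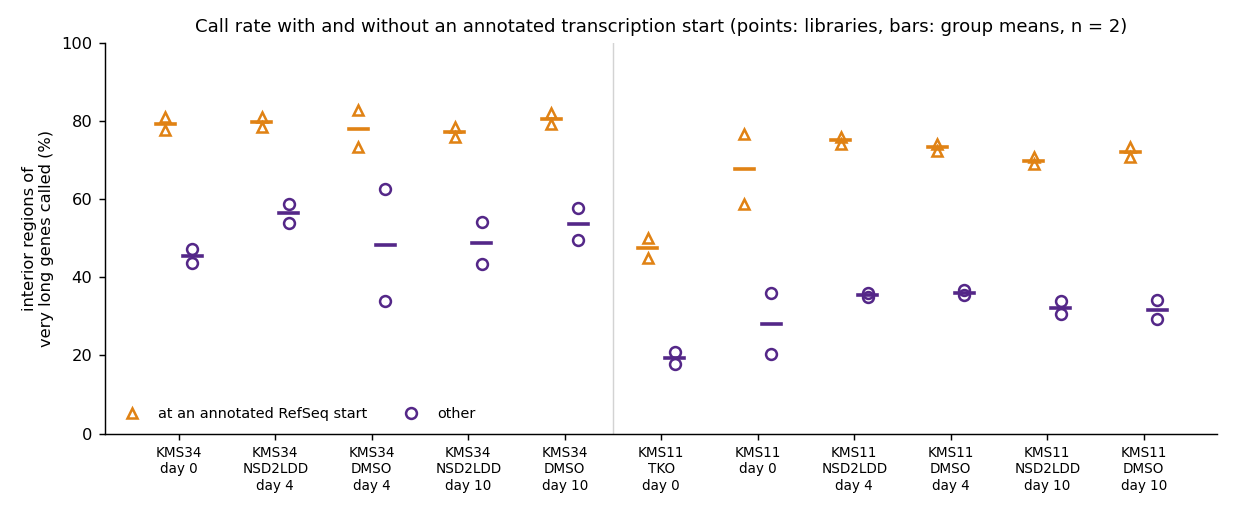
Share of regions inside very long genes called in each library (y axis, percent), for regions at an annotated RefSeq start (triangles) and for all others (circles), by group; points are libraries and bars are means of 2 libraries. Start regions lie above the others in every group, and in TKO both kinds lie below their day 0 KMS11 means, at 47.4% against 67.7% and at 19.4% against 28.2%.

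The peak lists held 24979 to 52518 peaks per library (median 37598.5), with 34165 to 52518 in KMS34 and 24979 to 39002 in KMS11. Read depth is unknown, because the lists hold no counts, and an uncalled region cannot be told apart from one sequenced too thinly to be called. The plasma cell label was checked against marker genes: 7 of 9 plasma cell genes (SDC1, TNFRSF17, PRDM1, IRF4, XBP1, CD38 and MZB1) had a peak at a gene end in all 22 libraries, while of the B cell genes MS4A1 and CD79A had none in any, PAX5 had one in 6 KMS11 libraries and CD22 in 1 KMS34 library. Of the other marker lists, 2 of 5 T and NK cell genes, 4 of 5 myeloid, 4 of 5 erythroid and 2 of 5 stromal and endothelial genes had no such peak anywhere. Other genes of these lists did have peaks: CEBPA (myeloid) and COL1A1 (stromal) in all 22 libraries, and KLF1 (erythroid) in all 12 KMS11 libraries. Of the T and NK cell genes, CD3E had one in 11 KMS11 and 10 KMS34 libraries and CD2 in 12 and 9. NSD2 itself had 770 and 374 bp under peaks in TKO and 458 and 494 bp in day 0 KMS11. It had 868 to 1716 bp with NSD2LDD and 908 to 1413 bp with DMSO in KMS11, and peak coverage checks neither protein degradation nor the TKO genotype.

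The first question was how often these regions were called in each of the 11 groups. Shares were higher on average in KMS34 than in KMS11 and lowest on average in TKO, with overlap between single libraries in both cases. In KMS34, 48.2% and 44.7% were called at day 0. With NSD2LDD 54.6% and 59.4% were called at day 4, and with DMSO 35.1% and 63.1%. At day 10 the shares were 54.9% and 44.4% with NSD2LDD and 58.3% and 50.3% with DMSO. The DMSO duplicates of day 4 in KMS34 stood furthest apart of all duplicates. In KMS11, TKO libraries called 21.8% and 18.5%, and the day 0 libraries 37.1% and 21.4%. The second day 0 library, below the first TKO library, had the shortest peak list of all. With NSD2LDD KMS11 libraries called 35.9% and 37.2% at day 4 and 31.6% and 34.9% at day 10. With DMSO they called 36.5% and 37.7% at day 4 and 30.4% and 35.2% at day 10. Over both days, treated and vehicle shares overlapped in each line.

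Because call rates follow list length, each library's rate inside very long genes was divided by its rate inside shorter genes. This ratio was 0.541 and 0.589 in TKO (mean 0.565 ± 0.034, SD, n = 2), against 0.783 and 0.805 in day 0 KMS11 (0.794 ± 0.016, n = 2). It averaged 1.00 ± 0.025 in the 6 untreated and DMSO libraries of KMS34 and 0.769 ± 0.044 in the 6 of KMS11. Neither pair of ranges overlapped. The ratio under NSD2LDD overlapped that under DMSO in both lines, at 0.982 ± 0.094 and 0.995 ± 0.022 in KMS34 and 0.726 ± 0.046 and 0.757 ± 0.050 in KMS11 (SD, n = 4 each). At day 10 in KMS11 it averaged 0.691 ± 0.017 with NSD2LDD and 0.731 ± 0.011 with DMSO, without overlap (n = 2 each). At day 4 the same groups overlapped.

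With every list shortened to its 24979 strongest peaks, TKO still called fewer of the regions, at 16.6% ± 0.80, against 22.1% ± 0.99 in day 0 KMS11, without overlap (SD, n = 2). Shorter-gene regions overlapped between the same libraries, at 30.7% and 28.7%. KMS34 called 24.8% ± 0.79 of the regions and KMS11 21.6% ± 1.04 on lists of this length, also without overlap (n = 6 each). Shorter-gene regions went the other way between the lines, at 26.6% in KMS34 and 29.2% in KMS11, with overlap. On these lists NSD2LDD shares overlapped those of DMSO over both days in each line. By day, KMS34 called 26.5% ± 1.09 with NSD2LDD and 24.6% ± 0.72 with DMSO at day 4, without overlap, and the groups overlapped at day 10 (SD, n = 2 each). Shorter-gene regions were also higher on average with NSD2LDD at day 4, at 27.7% and 26.3%, with overlap. The ratio on these lists overlapped too, at 0.957 and 0.938. KMS11 called 20.1% ± 0.27 with NSD2LDD and 20.9% ± 0.051 with DMSO at day 10, without overlap, and the groups overlapped at day 4. Shorter-gene regions in KMS11 at day 10 overlapped, at 30.5% and 29.5%. The unshortened difference between the lines was 16.9 percentage points, and the shortened one 3.14. Unshortened, the TKO difference was −9.10 percentage points, and it was −1.23 without the first day 0 KMS11 library.

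**Figure D2:**
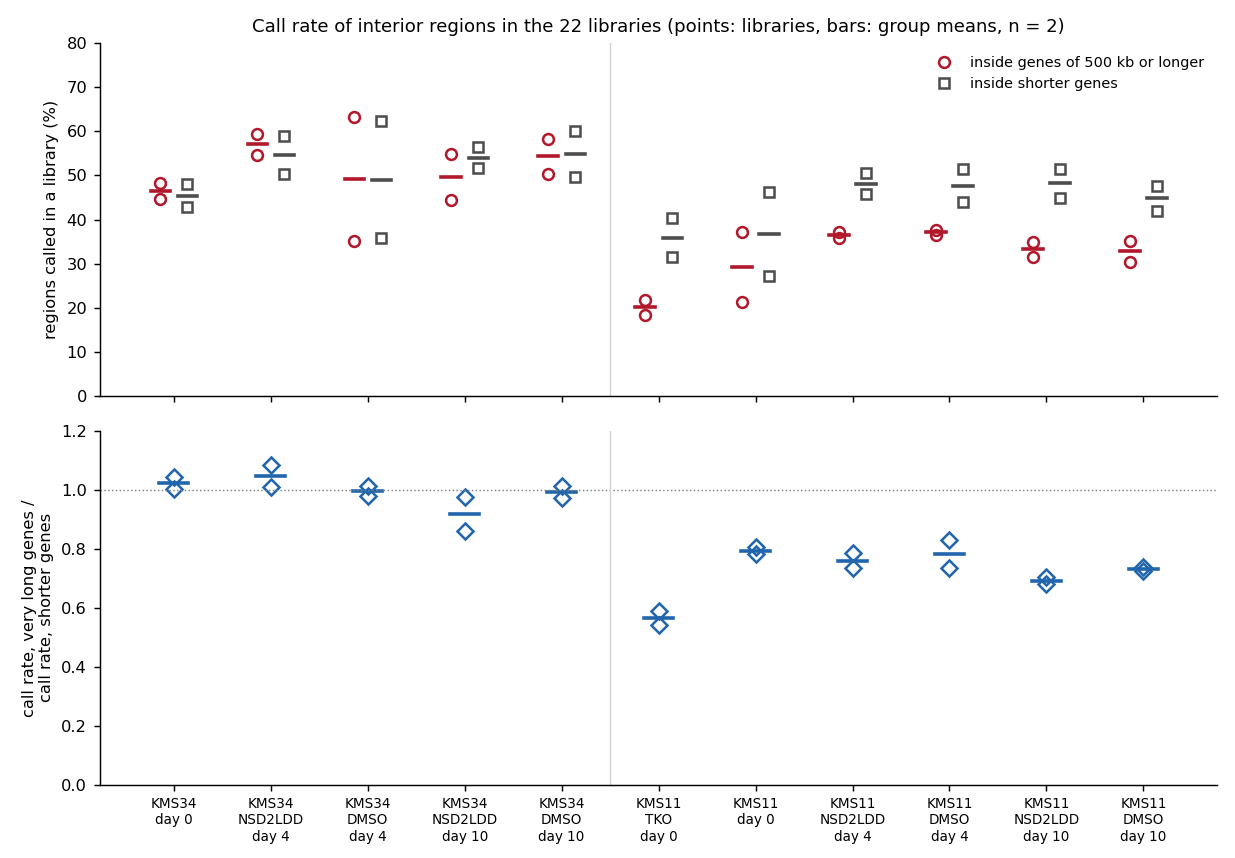
Upper panel, share of interior regions called in each library (y axis, percent) inside genes of 500 kb or longer (circles) and inside shorter genes (squares); lower panel, the ratio of the 2 shares; points are libraries and bars are means of 2 libraries per group. KMS34 ratios lie around 1, between 0.859 and 1.08, KMS11 ratios between 0.680 and 0.831, and TKO ratios at 0.541 and 0.589.

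TKO was compared with day 0 KMS11 to ask which of these sites differ with that genotype. Open chromatin inside very long genes was widely lost in TKO: of 827 regions called in both day 0 libraries, 276 (33.4%) had no peak in either TKO library. The share was smaller in shorter genes, at 22.2% of 1199 regions in genes of 250 to 500 kb, 15.3% of 2028 at 100 to 250 kb, 11.2% of 1169 at 50 to 100 kb and 7.42% of 1267 in genes under 50 kb. Near gene ends 1.77% of 9222 regions were lost, and outside protein-coding genes 23.3% of 6507. In the other direction, 70 of 656 regions called in both TKO libraries (10.7%) had no day 0 peak, against 9.29% of 6137 in shorter genes.

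The order of the length classes was the same with each of the 4 libraries left out, when the share in very long genes ran from 35.6% to 49.3%, with peaks of −log10 q of 5 or more, and with lists of equal length. It was also seen among peaks of like strength. Of regions whose weaker day 0 peak had a −log10 q of 2 to 5, 59.4% were lost in very long genes and 31.1% in shorter ones. At 5 to 10 the shares were 35.9% and 17.3%, at 10 to 20 they were 25.1% and 8.47%, and at 20 or more 15.6% and 3.81%. Within the set, loss was 30.6% of 385 regions in genes of 500 to 750 kb, 40.9% of 220 at 750 to 1000 kb, 34.6% of 153 at 1000 to 1500 kb and 21.7% of 69 in the 18 longest genes, so length and loss did not run together beyond 750 kb. A TKO library left out moved the lost share to 37.6% or 40.7%, and the second day 0 library left out to 49.3%.

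**Figure D3:**
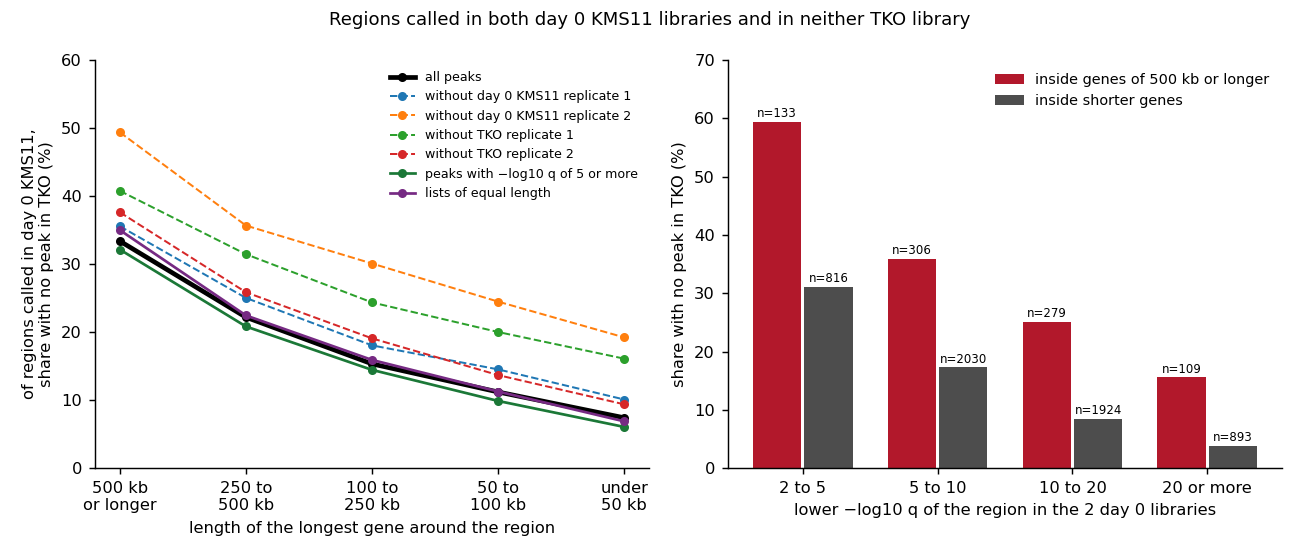
Left, share of regions called in the day 0 KMS11 libraries with no peak in TKO (y axis, percent), by length of the surrounding gene, for all peaks, with 1 library left out, with stronger peaks and with lists of equal length; right, the same share by the lower −log10 q of the region in day 0 KMS11, inside very long genes (red) and shorter genes (grey), with the number of regions above each bar. The share is highest in genes of 500 kb or longer on every line, and red bars exceed grey ones at each strength.

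Most of these 276 sites were called in KMS11 with NSD2LDD. Individual NSD2LDD libraries called 73.9% to 88.8% of them (median 81.7%) and DMSO libraries 77.9% to 92% (median 87.3%). The 455 regions that both TKO libraries kept were called at 98.2% to 99.1% with NSD2LDD and 96.7% to 99.1% with DMSO. In KMS34, 42.0% to 60.5% of the 276 were called with NSD2LDD and 42.0% to 64.1% at day 0 or with DMSO.

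Regions were then tested singly, with the bases of a region lying under peaks as the value, by limma on log2(bp + 100) across all 69187 regions. Coverage inside very long genes fell in TKO at 214 regions (5.17%) in 128 genes and rose at 33 (0.797%) in 26 genes at an adjusted p under 0.05. Over all regions 3.1% fell and 0.967% rose, and of shorter-gene interior regions 2.73% fell and 1.1% rose. Of the 214 regions that fell, 184 had no TKO peak, and of the 33 that rose, 30 had no day 0 peak. A region that reached the minimum of 2 libraries only through the group where it is high had to differ, and this held for 1 of the 214 and 19 of the 33. Among regions called in either group the median log2 difference was −0.76 in very long genes, −0.04 in shorter genes and −0.06 over all regions. Scaling by library lowered the TKO differences by 0.139 on the log2 scale, a shift that all regions share. Differences of regions at 0 bp in 1 group depend on the added 100 bp, so bases per library are given for these.

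The 5 regions with the largest loss had no peak in either TKO library and were called in every other KMS11 library. KHDRBS2, which encodes an RNA-binding regulator of splicing, had 0 and 0 bp in TKO and 1299 and 1574 bp in day 0 KMS11 at chr6:61886740-61888434 (limma adjusted p = 9.35e-05). The internal start of PDE10A, a phosphodiesterase that breaks down cAMP and cGMP, had 0 and 0 bp in TKO and 1246 and 1105 bp at day 0 (chr6:165661562-165663819, adjusted p = 2.53e-08, limma). At the internal start of SLC4A4, a sodium bicarbonate cotransporter, there were 0 and 0 bp in TKO and 1008 and 1024 bp at day 0 (chr4:71186033-71187566, adjusted p = 1.09e-07, limma). Both starts are the CG-dense windows printed above, and all 10 KMS34 libraries called them. RORA, a nuclear receptor gene, had 0 and 0 bp in TKO and 1080 and 804 bp at day 0 (chr15:60767363-60769137, limma adjusted p = 0.00022). BBS9, a subunit of the BBSome of cilia, had 0 and 0 bp in TKO and 875 and 769 bp at day 0 (chr7:33613808-33615388, limma adjusted p = 1.76e-05). No KMS34 library called the BBS9 region and 1 called that of RORA. With lists of equal length the PDE10A and RORA regions no longer passed.

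Of the regions that rose in TKO, the 5 largest differences were at GSE1, RAD51B, TENM3, ROBO2 and FOXP1, all at 0 and 0 bp in day 0 KMS11. GSE1, which encodes a coiled-coil protein, had 1171 and 908 bp in TKO (chr16:85447124-85449247, limma adjusted p = 0.00134). RAD51B, of homologous recombination, had 536 and 575 bp (chr14:68506494-68507358). TENM3, a teneurin adhesion protein, had 486 and 622 bp at chr4:182513697-182514450, a region called in no library outside TKO. ROBO2, a receptor for SLIT guidance ligands, had 664 and 424 bp (chr3:77071610-77072273). FOXP1, a forkhead transcription factor gene of B cell development, had 472 and 452 bp (chr3:71127182-71127782, limma adjusted p = 0.00101). In each of these regions both TKO libraries were high and both day 0 libraries were without a peak. Those of RAD51B, TENM3 and ROBO2 entered the set only through the TKO libraries, so their values are a description without a test. The GSE1 region did not pass with peaks of −log10 q of 5 or more, and that of FOXP1 did not pass in a fit of KMS11 libraries alone.

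Summed over a gene's interior, peak coverage fell in TKO in 73 of 311 very long genes tested (23.5%) and rose in 3 (0.965%), against 4.49% and 0.943% of all 8695 genes (limma on log2(bp + 200), adjusted p under 0.05). Without library scaling 39 fell and 1 rose. The median log2 difference was −0.60 in very long genes and −0.14 over all genes. Genes that fell made up 15.6% at 250 to 500 kb, 5.62% at 100 to 250 kb and 1.69% below 100 kb. Among genes with at least 10 interior regions the shares were 22.9% of 201 very long genes, 14.1% of 170 at 250 to 500 kb and 2.73% of 110 at 100 to 250 kb. Of 65 genes with at least 2 called regions, 52 had only falls, 7 only rises and 6 both.

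Of the 6 genes with the largest gene-level loss, 5 had no interior peak left in TKO. PDE10A had 0 and 0 bp in TKO and 2991 and 2284 bp in day 0 KMS11 (limma adjusted p = 1.73e-08), and all 5 of its regions called in both day 0 libraries were lost. KHDRBS2 had 0 and 0 bp in TKO and 2392 and 1901 bp at day 0 (limma adjusted p = 4.51e-06). GRID1, a delta glutamate receptor subunit, had 0 and 185 bp in TKO and 2956 and 2141 bp at day 0, a log2 difference of −3.43 ± 0.31 SE (limma adjusted p = 7.8e-06). INPP4B, a phosphoinositide phosphatase, had 0 and 0 bp in TKO and 2473 and 1082 bp at day 0 (limma adjusted p = 7.8e-06). SLC4A4 had 0 and 0 bp in TKO and 2372 and 1470 bp at day 0 (limma adjusted p = 1.1e-05). BBS9 had 0 and 0 bp in TKO and 2713 and 1152 bp at day 0 (limma adjusted p = 5.66e-05). In all 6 genes TKO lay below every other KMS11 library.

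The genes that rose were ROBO2, GSE1 and FOXP1. ROBO2 had 1604 and 982 bp in TKO and 0 and 185 bp at day 0 (log2 difference 2.26 ± 0.45 SE, limma adjusted p = 0.00592). GSE1 had 7383 and 4688 bp in TKO and 3093 and 585 bp at day 0 (1.78 ± 0.40, limma adjusted p = 0.0129). FOXP1 had 10565 and 7870 bp in TKO and 6525 and 2644 bp at day 0 (0.95 ± 0.21, limma adjusted p = 0.0119). Both TKO libraries exceeded both day 0 libraries in each, but other KMS11 libraries reached the TKO range of GSE1 and FOXP1. Each of the 3 calls was lost when 1 of 2 libraries was left out, the first TKO library in every case and otherwise a day 0 library.

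**Figure D4:**
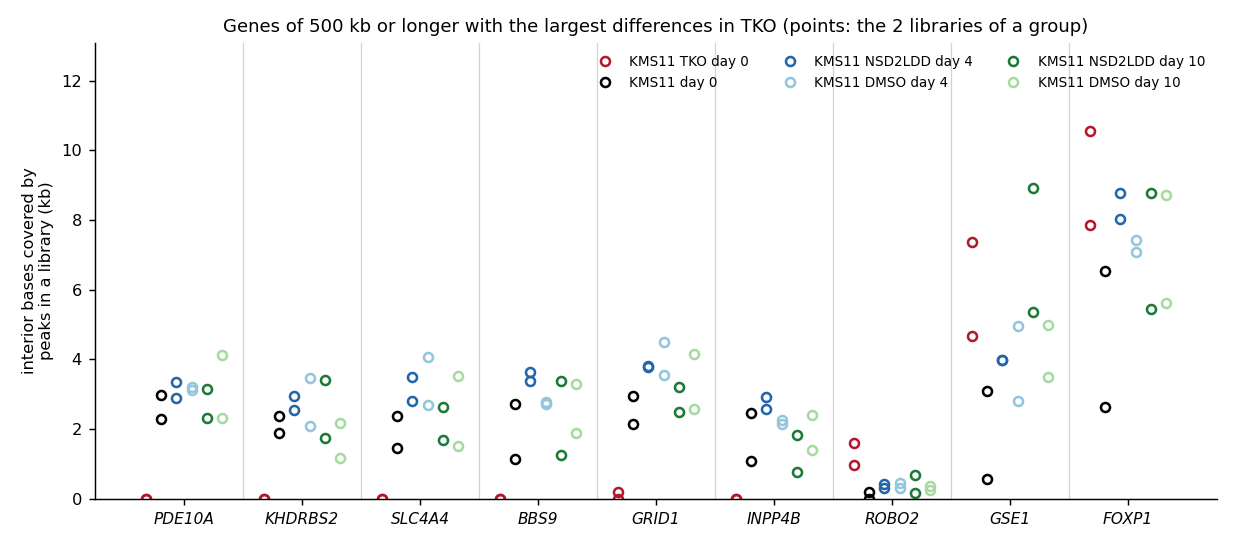
Interior bases under peaks (y axis, kb) in the 12 KMS11 libraries for the very long genes with the largest gene-level differences in TKO, 6 that fell and 3 that rose; points are libraries, 2 per group, colored by group. TKO points of the 6 genes on the left lie at or near 0 while every other KMS11 library lies above them.

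Regions at annotated starts also fell, 19 of 116 in TKO with none that rose, beside 195 and 33 of the other 4025 regions. Start regions were called more often at day 0, at 67.7% on average against 28.2% of the others, so more of them could fall. In TKO these shares were 47.4% and 19.4%, lower in both kinds. The counts therefore do not show that start regions were lost more readily than the others. The state of the gene's own 5′ end was read for 262 of the genes. Loss reached 27.5% of 313 regions in genes whose start was open in both groups, 33.9% of 186 where it was closed in both, and 54.0% of 50 in the 18 genes whose start was open at day 0 and closed in TKO. In every one of the 22 libraries regions in genes with an open start were called more often than those with a closed one. The gap was widest in the TKO libraries, at 25.3% against 17.9% and 21.3% against 15.3%. It was narrowest in the second DMSO day 4 library of KMS34, at 62.8% against 62.4%.

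NSD2LDD was compared with DMSO in KMS11, over days 4 and 10 together, to ask which sites changed as NSD2 was degraded. Few did. Coverage fell at 2 regions and rose at 4, against 0.0318% and 0.0376% of all regions (limma, adjusted p under 0.05). Of the 4141 regions, 90 and 117 reached an unadjusted limma p under 0.05. A share of 0.05 over both directions would do so with no difference. But 43.9% of these regions had no peak in any library compared, so the counts cannot decide whether there was an effect. Of the 2 and the 4, 1 each reached the minimum of 2 libraries only through the group where it was high. The median log2 difference where a peak was called was 0.03 in very long genes and 0.06 in shorter ones. With KMS11 libraries fitted alone none passed, and without library scaling 10 fell and 5 rose.

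The 2 losses were complete. SORCS3, a sorting receptor of neurons, had 0 bp in all 4 NSD2LDD libraries, against 337 and 324 bp (day 4) and 329 and 470 bp (day 10) with DMSO (chr10:104809274-104809972, limma adjusted p = 0.00121). Both TKO libraries were also at 0 bp, against 551 and 273 bp at day 0. The NSD2LDD call of SORCS3 was lost with lists of equal length and with peaks of −log10 q of 5 or more. CREB5, a bZIP transcription factor gene, had 0 bp in all 4 NSD2LDD libraries, against 525 and 334 bp (day 4) and 344 and 240 bp (day 10) with DMSO (chr7:28539285-28539913). The CREB5 region entered the set only through the DMSO libraries, so its values carry no test. The next by p, which did not pass, were a region of DLGAP2, a postsynaptic scaffold gene, called in 2 DMSO libraries and nowhere else, and one of FRMD4A, a cell polarity scaffold gene. FRMD4A had 408 and 547 bp at day 4 and 0 and 0 bp at day 10 with NSD2LDD, against 494, 492, 457 and 454 bp with DMSO (chr10:13941872-13942497, limma adjusted p = 0.062). The same region passed in TKO, with 0 and 0 bp against 377 and 443 bp at day 0 (limma adjusted p = 0.000236). It also passed with NSD2LDD in KMS34 (limma adjusted p = 0.0365). There it had 393 and 547 bp at day 4, within the DMSO range, and 0 and 0 bp at day 10. DMSO libraries of KMS34 had 422, 532, 616 and 332 bp.

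Gains were at FOXP1, LRMDA, PCDH15 and GPHN. FOXP1, at the same region that rose in TKO, had 225 and 334 bp (day 4) and 192 and 431 bp (day 10) with NSD2LDD, against 0 bp in all 4 DMSO libraries (limma adjusted p = 0.0102). With lists of equal length this FOXP1 difference reversed and was no longer called, at −0.00239 on the log2 scale. LRMDA, a gene of melanocyte differentiation, had 907, 973, 525 and 673 bp with NSD2LDD, against 514, 280, 0 and 0 bp with DMSO (chr10:75597469-75598492, log2 difference 1.94 ± 0.26 SE, limma adjusted p = 0.0102). PCDH15, a protocadherin of hair cells, had 341, 333, 229 and 323 bp with NSD2LDD and 0 bp in all 4 DMSO libraries, although 1 day 0 library had 356 bp (chr10:55145926-55146437), and entered the set only through the NSD2LDD libraries. GPHN, the scaffold of inhibitory synapses, had 926, 865, 702 and 993 bp with NSD2LDD and 561, 648, 314 and 586 bp with DMSO (chr14:67488041-67489059, 0.65 ± 0.11, limma adjusted p = 0.0477). None of these 4 overlapped between treated and vehicle libraries, but they were chosen by this same comparison, so the separation adds no support. Leaving out single libraries ended the call of GPHN for 7 of 8 libraries.

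Of the 214 regions that fell in TKO, 1, that of SORCS3, also fell with NSD2LDD in KMS11. Of the 33 that rose, 1, that of FOXP1, also rose. Neither NSD2LDD call was seen with lists of equal length, with peaks of −log10 q of 5 or more or with KMS11 libraries alone. The TKO and NSD2LDD comparisons share no library. At gene level SPOCK1, a secreted proteoglycan gene, was the only very long gene called in KMS11. Its interior had 727 and 1089 bp (day 4) and 0 and 0 bp (day 10) with NSD2LDD, against 1609, 845, 654 and 1222 bp with DMSO, a log2 difference of −1.40 ± 0.21 SE (limma adjusted p = 0.0248). Day 4 overlapped with DMSO and day 10 did not, and the call was lost in 6 of 8 fits that left out a library. Over all genes 0.046% fell and 0.023% rose. Among the 311 very long genes 12 and 4 reached an unadjusted limma p under 0.05 in the 2 directions. A share of 0.05 over both directions would do so with no difference.

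In KMS34 the same comparison called more regions, 18 lower and 37 higher with NSD2LDD, against 0.344% and 0.642% of all regions (limma, adjusted p under 0.05), or 0.435% and 0.894% of those inside very long genes. These counts were not stable: they ran from 7 to 35 and from 13 to 49 as single libraries were left out, and the KMS34 libraries alone gave 1 and 0. Of the 18 and 37, 10 and 33 reached the minimum of 2 libraries only through the group where they were high and so had to differ.

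Losses in KMS34 included DAB1, FRMPD4, LHFPL3, LRRC37A2 and DLGAP2. DAB1, the adaptor of reelin signalling, had 358 and 598 bp (day 4) and 0 and 0 bp (day 10) with NSD2LDD at its internal start, against 766, 1116, 1182 and 539 bp with DMSO (chr1:57422965-57424680, log2 difference −2.0 ± 0.26 SE, limma adjusted p = 0.00298). A day 4 library lay within the DMSO range. FRMPD4, a postsynaptic scaffold gene, had 0 bp in all 4 NSD2LDD libraries, against 369, 295, 370 and 188 bp with DMSO (chrX:12494736-12495265, limma adjusted p = 0.00298). LHFPL3, a tetraspan protein gene, had 0 bp in all 4 NSD2LDD libraries and 284, 420, 542 and 242 bp with DMSO (chr7:104857924-104858473). No KMS11 library called any of these 3 regions. LRRC37A2 had 0, 167, 0 and 750 bp with NSD2LDD and 817, 843, 1192 and 686 bp with DMSO, an overlap, in a duplicated gene family where reads may be shared between copies (chr17:46770792-46772052, −2.13 ± 0.46, limma adjusted p = 0.0453). A DLGAP2 region had 0 bp in all 4 NSD2LDD libraries and 609, 470, 342 and 0 bp with DMSO. The LHFPL3 and DLGAP2 regions entered the set only through DMSO libraries, so their values carry no test. LRRC37A2 lost its call in 14 of 18 alternatives, 5 of them single libraries left out, and reversed (0.0287) with lists of equal length.

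Gains in KMS34 were led by ROBO2, RABGAP1L, PTPRK, THSD7B and ANK3. ROBO2 had 205 and 312 bp (day 4) and 816 and 881 bp (day 10) with NSD2LDD and 0 bp in all 4 DMSO libraries, although day 0 KMS34 had 797 and 495 bp (chr3:77319853-77320733, limma adjusted p = 0.00136). RABGAP1L, a Rab GTPase activator gene, had 179 and 331 bp (day 4) and 505 and 661 bp (day 10) at the CG-poor start printed above, against 0 bp with DMSO and 254 and 182 bp at day 0 (chr1:174964332-174965914, limma adjusted p = 0.0453). In both, the DMSO libraries stood apart from day 0 as well as from NSD2LDD. PTPRK, a receptor tyrosine phosphatase, had 673, 708, 197 and 661 bp with NSD2LDD and 0, 0, 0 and 156 bp with DMSO (chr6:128156321-128157151). THSD7B, a thrombospondin repeat gene, had 407, 294, 408 and 301 bp with NSD2LDD, against 0 bp in every other library of the study (chr2:136956931-136957371). ANK3, ankyrin-G of the axon initial segment, had 378, 505, 682 and 491 bp with NSD2LDD and 0, 0, 419 and 0 bp with DMSO (chr10:60649656-60650474). The regions of PTPRK, THSD7B and ANK3 entered the set only through the NSD2LDD libraries, so these values are a description without a test. RABGAP1L lost its call whichever of the 8 libraries was left out.

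No very long gene was called in KMS34 under NSD2LDD (limma), and over all genes 0.0575% rose. Of 311 very long genes, 7 were lower and 24 higher at an unadjusted limma p under 0.05. The share of all genes at that unadjusted limit is not given here, so these counts carry no reading. The smallest p-values belonged to SBF2 (log2 difference −0.65, limma adjusted p = 0.226), SYN3 (−1.33, limma adjusted p = 0.238), CADPS2 (0.98, limma adjusted p = 0.274) and PDE1A (0.60, limma adjusted p = 0.292). The difference between the NSD2LDD effects in KMS34 and in KMS11 was tested directly. It passed at 1 region, that of SORCS3, against 0.00289% of all regions in each direction. NSD2LDD libraries of KMS34 kept 570 to 586 bp there, against 467 to 650 bp with DMSO, and the effect in KMS34 minus that in KMS11 was 2.24 ± 0.30 SE (limma adjusted p = 0.0402). That call was lost in 14 of 16 fits that left out a library.

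KMS34 was compared with KMS11 over untreated and DMSO libraries (6 against 6), the widest difference in these regions. Coverage was lower in KMS34 at 626 regions (15.1%) and higher at 949 (22.9%), against 14.2% and 20% of all regions and 18.2% and 17.6% of shorter-gene interior regions (limma, adjusted p under 0.05). The shares of all regions lie near those inside very long genes, and the shorter-gene regions divided almost evenly. Where a peak was called, the median log2 difference was 0.29 inside very long genes and 0.12 in shorter genes. Scaling lowered these differences by 0.176. Of the 626 and 949 regions, 50 and 87 reached the minimum of 2 libraries only through the line where they were high. With lists of equal length 451 regions were lower and 457 higher, so the excess of higher regions was not seen at equal list length, and without scaling 492 were lower and 1119 higher. The line and whatever distinguishes the 2 cultures cannot be told apart.

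Several regions had a peak in all 6 untreated and DMSO libraries of 1 line and in none of the 6 of the other. GPC6, a glypican gene, had 0 bp in the 6 KMS34 libraries and 1079 to 1918 bp (mean 1495 ± 336, SD) in the 6 KMS11 libraries at the start printed above (chr13:93226757-93228732, limma adjusted p = 1.84e-10). LRP1B, a giant LDL receptor relative, had 0 bp in KMS34 and 1160 to 1527 bp in KMS11 (chr2:140416410-140418132, limma adjusted p = 2.85e-10). SNX29, a sorting nexin gene, had 0 bp in KMS34 and 932 to 1939 bp in KMS11 (chr16:12097456-12099450, limma adjusted p = 1.41e-09). MCTP1, a calcium-binding C2 domain protein, had 0 bp in KMS34 and 922 to 1295 bp in KMS11 (chr5:95087171-95088490, limma adjusted p = 7.2e-10). An internal start of ANK3 had 0 bp in KMS34 and 864 to 1451 bp in KMS11 (chr10:60572442-60574260, limma adjusted p = 3.27e-07). In the other direction, FRMD4A had 1024 to 1615 bp in KMS34 and 0 bp in KMS11 (chr10:14184680-14186488, limma adjusted p = 3.22e-08). CTNNA3, alpha-T-catenin, had 620 to 1458 bp in KMS34 and 0 bp in KMS11 (chr10:66586179-66587820, limma adjusted p = 6.66e-09). The internal start of NRXN3, a presynaptic neurexin, had 710 to 1131 bp in KMS34 and 0 bp in KMS11 (chr14:79278430-79279652, limma adjusted p = 8.12e-09). SORCS1 (650 to 1242 bp in KMS34, chr10:106655217-106656708, limma adjusted p = 9.33e-09) and RPS6KC1 (695 to 1470 bp in KMS34, chr1:213081749-213083607, limma adjusted p = 4.91e-08) were likewise at 0 bp in the 6 KMS11 libraries. Among NSD2LDD and TKO libraries, 3 of KMS11 called the RPS6KC1 region and 1 of KMS11 that of FRMD4A. The ANK3 region was called in 1 NSD2LDD library of KMS34.

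Whole gene bodies differed between the lines as well. Interior coverage was higher in KMS34 in 135 of 311 very long genes (43.4%) and lower in 51 (16.4%), against 23.7% and 19.7% of all genes, and the median log2 difference was 0.46, against 0.09 over all genes. With lists of equal length 81 were higher and 78 lower, so the excess of higher genes was not seen at equal list length either. Higher genes were 33.8% at 250 to 500 kb, 26.4% at 100 to 250 kb and 20.4% below 100 kb. Of 272 genes with at least 2 called regions, 55 had only higher regions, 24 only lower and 193 both, so most genes held regions of each line.

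CTNNA3 had 4070 to 10129 bp in the 6 KMS34 libraries and 0 to 289 bp in the 6 KMS11 libraries, with 12 of 21 regions called higher (4.56 ± 0.30 SE, limma adjusted p = 1.32e-08). AGBL4, a tubulin deglutamylase gene, had 4100 to 8083 bp in KMS34 and 0 to 630 bp in KMS11, and 13 of 24 regions were higher (3.41 ± 0.23, limma adjusted p = 1.75e-08). ANKS1B, a postsynaptic protein gene, had 4288 to 7886 bp in KMS34 and 0 to 1007 bp in KMS11, and 14 of 26 regions were higher (3.24 ± 0.33, limma adjusted p = 1.16e-06). PTPRN2 (3.67 ± 0.37), a secretory vesicle protein, RBFOX3, the neuronal splicing factor NeuN, and CDH4 (2.96 ± 0.38), R-cadherin, were the other genes that rose most, and RBFOX3 was at 0 bp in all 6 KMS11 libraries. PTPRN2 and RBFOX3 did not pass with lists of equal length, and PTPRN2 then had a log2 difference of −0.185.

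NAV3, a neuron navigator gene, had 0 bp in KMS34 and 1752 to 5128 bp in KMS11, with 7 of 9 regions lower (limma adjusted p = 4.87e-10). SNX29 had 0 to 767 bp in KMS34 and 1934 to 5022 bp in KMS11 (−3.19 ± 0.36, limma adjusted p = 3.45e-06). SDK1, PPFIA2 and CADPS2, genes of synaptic adhesion, active zone scaffolding and vesicle exocytosis, also fell without overlap, CADPS2 with 354 to 2366 bp in KMS34 and 3053 to 7553 bp in KMS11 (−2.11 ± 0.22, limma adjusted p = 1.33e-06).

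The genes were also grouped by function. No gene of any of the 7 lists passed under NSD2LDD in either line. The counts below are to be read against all very long genes, of which 23.5% fell and 0.965% rose in TKO and 43.4% were higher and 16.4% lower in KMS34, the line counts on lists of unequal length. In the synapse and axon guidance adhesion list, 43 genes with 725 regions, 14 genes fell and 1 rose in TKO (median log2 difference −0.74), and 25 were higher and 7 lower in KMS34 (median 0.62). CNTN4, a contactin, had 0 and 0 bp in TKO and 1441 and 1092 bp at day 0 (limma adjusted p = 3.61e-05). SLIT3, a guidance ligand, had 0 and 0 bp in TKO and 1023 and 515 bp at day 0 (limma adjusted p = 3.89e-05), and its coverage was 6581 to 11360 bp in KMS34 and 515 to 1754 bp in KMS11, with 15 of 20 regions higher. Medians over all very long genes were −0.60 in TKO and 0.46 between the lines, and a median counts genes at 0 bp in 1 group by a value that depends on the added 200 bp.

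Of 20 ion channel and neurotransmitter receptor genes of this length, 5 fell and none rose in TKO (median −0.95), and 10 were higher and 1 lower in KMS34 (median 0.73). KCNMA1, a potassium channel gene, had 0 and 0 bp in TKO and 1607 and 592 bp at day 0 (limma adjusted p = 1.38e-05). Of 26 kinase, phosphatase and second messenger genes, 9 fell and none rose in TKO (median −0.62), and 11 were higher and none lower in KMS34 (median 0.50). NRG3, a growth factor that binds ERBB4, had 0 and 0 bp in TKO and 1703 and 1051 bp at day 0 (limma adjusted p = 7.8e-06). Of 20 transcription and RNA regulators, 3 fell and 1 rose in TKO (median −0.60), and 9 were higher and 4 lower in KMS34 (median 0.58). FOXP2, a forkhead gene, had 269 and 0 bp in TKO and 1769 and 1530 bp at day 0 (−2.73 ± 0.29 SE, limma adjusted p = 2.36e-05). FOXP1 had 2919 to 4045 bp in KMS34 and 2644 to 8719 bp in KMS11, lower in KMS34 on average although 1 KMS11 library lay below all 6 KMS34 libraries (−0.99 ± 0.12, limma adjusted p = 7.66e-06).

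Of 20 genes transcribed in many tissues including blood, 3 fell and 1 rose in TKO (median −0.24), and 5 were higher and 5 lower in KMS34 (median 0.17). LPP, a focal adhesion gene, had 233 and 187 bp in TKO and 2759 and 2151 bp at day 0 (−2.83 ± 0.22 SE, limma adjusted p = 3.25e-06). Of 19 fragile site genes with 383 regions, 2 fell and none rose in TKO (median −0.36), and 8 were higher and 1 lower in KMS34 (median 0.50). PARD3B, a polarity gene, had 560 and 371 bp in TKO and 2193 and 1324 bp at day 0 (−1.67, limma adjusted p = 0.0269). Of 10 cadherin and catenin genes, 1 fell in TKO (median −0.52), and 3 were higher and 2 lower in KMS34 (median 0.01). That gene was CTNND2, delta-catenin, with 1151 and 421 bp in TKO and 3713 and 2066 bp at day 0 (−1.84, limma adjusted p = 0.00604).

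Among the 8 genes with most interior regions were some, such as DLG2 and AUTS2, whose regions did not all move together. This was not general: of 65 very long genes with at least 2 regions called in TKO, 52 had only falls. Between the lines 193 of 272 such genes had both directions. DLG2, the postsynaptic scaffold PSD-93, held 58 regions, of which 5 were called in all 22 libraries, 4 fell in TKO, 5 were lower and 12 higher in KMS34. Its gene-level difference in TKO did not pass (−0.36, limma adjusted p = 0.549). CNTNAP2, of the neurexin family, held 51 regions, and TKO libraries called 4 and 7 of them and day 0 KMS11 libraries 19 and 12 (−1.38, limma adjusted p = 0.000793). TENM2, a teneurin, held 37, with 3 and 4 called in TKO and 13 and 7 at day 0 (−1.63, limma adjusted p = 0.00106), and 16 were higher and 3 lower in KMS34. GALNTL6, a glycosyltransferase family gene, held 36, with 6 and 6 called in TKO and 15 and 9 at day 0 (−0.93, limma adjusted p = 0.02). AUTS2, a partner of Polycomb proteins, held 31, of which 10 were lower and 4 higher in KMS34, with 5 and 5 called in TKO and 15 and 11 at day 0 (−0.70, limma adjusted p = 0.179).

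The phosphodiesterase gene PDE4D held 47 regions, with 20 and 18 called in TKO and 23 and 15 at day 0, and 7 called in all 22 libraries. Its interior coverage in TKO differed from day 0 by −0.14 (limma adjusted p = 0.925). Of its 14 regions called in both day 0 libraries TKO lost 1. PTPRD, a receptor tyrosine phosphatase (33 regions), and RABGAP1L (31 regions) did not pass in TKO either, at −0.18 (limma adjusted p = 0.925) and 0.05 (limma adjusted p = 0.934). RABGAP1L was lower in KMS34, with 12 regions lower and 3 higher (−1.12, limma adjusted p = 0.00016). TENM3 lost none of 11 day 0 regions, and PALM2AKAP2 and ANK3 none of 8 each. By contrast ARHGAP24, a GTPase activator, lost 7 of 8, KIAA1217 4 of 5 and TENM2 5 of 7, genes chosen here after their values were seen.

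**Figure D5:**
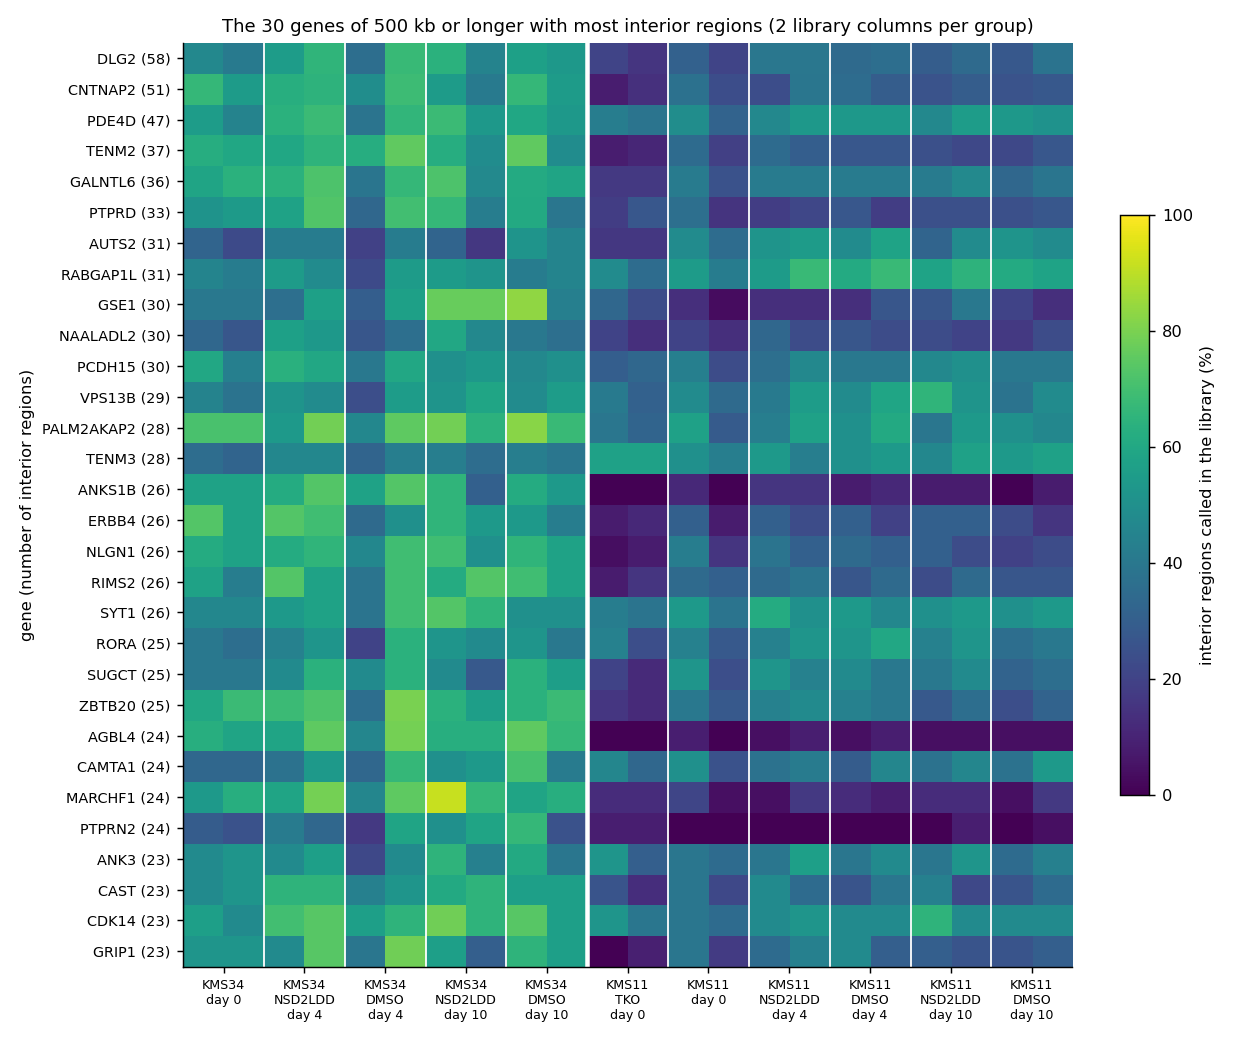
Share of interior regions called (color, percent) in each of the 22 libraries (columns, 2 per group) for the 30 very long genes with most regions (rows, number of regions in brackets). AGBL4, ANKS1B and PTPRN2 are near 0 in KMS11 and called widely in KMS34, and TENM2, CNTNAP2 and NLGN1 are lower in both TKO columns than in the day 0 KMS11 columns.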

How the data were processed

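ATAC-seq libraries of KMS11 and KMS34 cells were analysed from the peak lists that the authors deposited, 1 per library. The submitters' processing notes name fastp, BWA, SAMtools, Picard, MACS3, deepTools and hg38, with versions not given in the sources used here. Each deposited list gives −log10 q-values and a fold enrichment (ratio) per peak, as the authors' peak caller wrote them, and no counts.

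The members and gene lists were chosen with earlier results of these data known. Peaks were merged with bedtools 2.31.1 and Python 3.11.15 (numpy 2.4.6, pandas 2.3.3, matplotlib 3.10.9). Bases under peaks per region, or per gene interior, were scaled by library and fitted by limma 3.58.1 (R 4.3.3, trend and robust) on log2(bp + 100), or + 200 for genes, over all 22 libraries as 11 groups. P-values were Benjamini-Hochberg adjusted over all 69187 regions or 8695 genes. The steps were tested on simulated data. Call rates carry no test.

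Named regions are the 5 largest falls and rises past adjusted p 0.05 per comparison, with the same direction at both days for NSD2LDD, or the 2 of smallest p where fewer than 3 passed. Named genes are the 6 largest each way (or the 2 of smallest p), the 8 with most regions, and up to 2 per list. Some items under these rules are not reported here. Tried in turn were no scaling, plain limma, −log10 q of 5 or more, equal lists, other added bases, other library minimums, other gene lengths, 1 line alone, a replicate block and each library left out.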

Additional observations from a re-analysis of the deposited data

Results flagged for a closer look

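The effect of NSD2LDD on the SORCS3 region at chr10:104809274-104809972 differed between the lines, by 2.24 ± 0.30 SE on the log2 scale in KMS34 minus KMS11 (limma adjusted p = 0.0402). In KMS34 the region had 570 to 586 bp under peaks with NSD2LDD and 467 to 650 bp with DMSO, and in KMS11 it had 0 bp in 4 of 4 NSD2LDD libraries and 324 to 470 bp with DMSO. It was the one such region of 4141, against 0.00289% of all regions in each direction. The call of this difference was lost in most of the 16 fits that left out a library. It gave 0 regions with a replicate block, with 300 bp added and with a minimum of 1 library, while other settings gave up to 17. The fall of the SORCS3 region in KMS11 was not called with lists of equal length or with peaks of −log10 q of 5 or more.

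In the 4 DMSO libraries of KMS11, the ratio of the call rate inside very long genes to that inside shorter genes was 0.831 in the first day 4 library, while the other 3 lay between 0.723 and 0.739. Its gap to the nearest library was 0.854 of the range, against Dixon's critical value of 0.829. This was 1 of 12 checks, the call rate and the ratio in each of 6 sets of libraries that partly share libraries, and chance picks out about 1 in 20.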

How the results depend on the processing

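Peak lists without counts limit what can be seen: depth is unknown, each group has 2 libraries, and a weak site can miss the caller's threshold. Of 1109 alternative values of 66 named regions and genes, 978 kept their direction and side of the threshold, 118 lost the call, 9 gained it and 4 reversed. All 4 reversals came with lists of equal length: the FOXP1 region (−0.00239, NSD2LDD in KMS11), the LRRC37A2 region and the SYN3 gene (0.0287 each, NSD2LDD in KMS34), and the PTPRN2 gene (−0.185, KMS34 minus KMS11). The cause was not tested. The test of the difference between lines could not be run within 1 line alone.

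Same-numbered libraries mostly did not deviate together: over 55 pairs of groups r ran from −0.172 to 0.207 (median −0.00195), with 2 above 0.1. Those 2 were pairs of groups compared here. They were DMSO with NSD2LDD at day 10 in KMS11 (0.207) and day 0 KMS11 with TKO (0.116). Some sharing between same-numbered libraries is therefore possible in these comparisons, and its source was not tested. With a replicate block, NSD2LDD in KMS11 called 2 regions lower and 2 higher (2 and 4 without it), NSD2LDD in KMS34 8 and 10 (18 and 37), TKO 202 and 33 (214 and 33) and KMS34 against KMS11 621 and 947 (626 and 949). The block gave 0 regions for the difference between lines and 1, 0, 73 and 185 genes.

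For NSD2LDD in KMS11, regions lower numbered 10 without scaling, 9 by plain limma, 5 with −log10 q of 5 or more, 14 with equal lists, 12 with 30 bp added, 1 with 300 bp, 0 with KMS11 alone and 0 in genes of 750 kb or longer. Regions higher numbered 9 by plain limma, 10 with equal lists, 10 with 30 bp, 1 with 300 bp, 2 with regions of at least 1 library and 0 with KMS11 alone. Genes called (1) numbered 0 without scaling, 0 with equal lists, 2 with 50 bp, 0 with 1000 bp and 0 with KMS11 alone. With single libraries left out these ran from 1 to 5 (lower), 2 to 4 (higher) and 0 to 2 (genes). The lower count was 4 without the first DMSO day 10 or the first NSD2LDD day 4 library, 5 without the second DMSO day 10 and 1 without the second NSD2LDD day 10 library. The higher count was 2 without the first DMSO day 4 or the second NSD2LDD day 4 library.

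For NSD2LDD in KMS34, regions lower and higher numbered 40 and 73 without scaling, 53 and 79 by plain limma, 48 and 81 with 30 bp, 3 and 7 with 300 bp, 6 and 8 with at least 1 library, 10 and 13 with at least 3, 1 and 0 with KMS34 alone, 41 and 74 in genes of 250 kb or longer and 11 and 20 at 750 kb. Leaving out libraries gave 7 to 35 and 13 to 49. The lower count was 7 without the first DMSO day 10 library, 28 without the second, 35 without the first DMSO day 4, 11 without the second NSD2LDD day 10, and 9 and 11 without either NSD2LDD day 4 library. The higher count was 15, 20, 13 and 23 without the first DMSO day 10, the first DMSO day 4 and either NSD2LDD day 4 library. Genes numbered 3 with equal lists and 0 to 5 with libraries left out, 5 without the second DMSO day 4 library. The difference between lines gave 13 regions without scaling, 17 by plain limma, 3 with −log10 q of 5 or more, 12 with equal lists, 15 with 30 bp, 0 with 300 bp, 0 with at least 1 library, 2 with at least 3, and 0 to 1 with libraries left out.

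For TKO, regions lower numbered 418 at 250 kb and 116 at 750 kb (164 to 203 with libraries left out). Regions higher numbered 10 with KMS11 alone, 59 at 250 kb and 15 at 750 kb (25 to 75, with 75 without the first day 0 library). Genes called numbered 40 without scaling (60 to 80). Against 6 untreated and DMSO KMS11 libraries, chosen after seeing the data, 263 regions were lower, 44 higher, and 26.7% of regions were lost. At 250 kb 26.8% were lost, and 35.6% to 49.3% with libraries left out. For KMS34 against KMS11, regions lower numbered 1557 at 250 kb and 324 at 750 kb (547 to 624), regions higher 457 with equal lists, 1921 at 250 kb and 555 at 750 kb (790 to 1071), and genes 173 to 204.

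With libraries left out, call rate differences ran from −1.57 to 1.06 percentage points (NSD2LDD in KMS11), −3.91 to 5.44 (NSD2LDD in KMS34), −17.0 to −1.23 (TKO) and 14.2 to 19.8 (KMS34 minus KMS11, 3.14 with equal lists). Ratio differences ran from −0.051 to −0.00656, −0.0476 to 0.0274, −0.253 to −0.205 and 0.226 to 0.248 in the same order. Between the lines the ratio difference was 0.19 with equal lists, 0.147 at 250 kb and 0.293 at 750 kb.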
